A study of Mus musculus with 6 samples.

Results

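The comparison described here set mouse embryonic stem cells carrying a shortened DNMT1 against cells carrying the complete protein, before differentiation began. It used 2 of the 6 arrays of the study, those titled day 0, with 1 array for each line, and was read across 13277 measured genes. Both lines are Dnmt1/3a/3b triple knockout cells, so neither has working copies of its own DNA methyltransferase genes. The TKO_FL line expresses full-length DNMT1 throughout the cells, and the TKO_602 line expresses DNMT1 without its N-terminal 602 amino acids. They are called the full-length line and the deletion line. At day 0 both were kept in medium with 10% fetal bovine serum and leukaemia inhibitory factor (LIF), the cytokine that holds mouse stem cells undifferentiated, and no Activin A had been given. The 4 later arrays held the same lines after differentiation had started: day 4 followed the removal of LIF, and day 7 followed a further culture in KSR medium (10%) to which Activin A (10 ng/ml) was added. Because only 1 line carried each form of DNMT1, the effects of the form and of the line cannot be told apart, and the labels do not say whether a line was 1 clone or whether feeder cells were used.

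DNMT1 is the maintenance DNA methyltransferase: it follows the replication fork and copies methylation from the old strand to the new one. Its N-terminal part binds the replication clamp PCNA and other partners and holds the sequence that targets it to replication foci, while the catalytic domain lies at the C-terminal end. In mouse stem cells promoter methylation helps to silence germline genes, and stem cells with little DNA methylation still renew themselves.

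Levels are log2 signals, with values below a floor of 5.37 (a signal of 41.2) set to that floor. A gene was read from its brightest probe set, a group of short probes for 1 transcript. With 1 array a side there was no replicate and no test, so each difference compares those arrays only, and the number of arrays limits the precision. Differences are deletion line minus full-length line, and a difference from a level at the floor is written as at least that size. A gene counted as 2-fold higher or lower where the lines differed at least 2-fold, and the higher of the levels was 2 times the floor or more. Genes just inside that threshold differed by 1.00 on the log2 scale and those just outside by 0.99.

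The labels of the deletion line's day 0 sample disagree: its title gives day 0, while its source label describes differentiated cells. By its title it was compared here as stem cells. Pou5f1, which encodes the pluripotency factor OCT4, had levels of 14.02 (full-length) and 13.66 (deletion), the order kept below wherever a pair of levels is given. Sox2 read 13.46 and 13.71, and Nanog 13.83 and 13.31. The yolk sac genes Ttr, Afp and Apoa1 were at the floor on both day 0 arrays, the only 3 of 25 measured extraembryonic endoderm genes that were. Of the other genes of that list, Fst, Lrp2 and Col4a2 were 2-fold higher in the deletion line and 0 were 2-fold lower. The list had 12% higher, beside 3.15% of all genes, and a median of 0.00. Stem cell markers were well above the floor on both arrays, and these values do not settle which label is right.

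The sequences that bear on the largest gene groups are shown first. The 3 meiosis genes below were the lowest of their list in the deletion line among those with a RefSeq window, and germline promoters of this kind are known targets of DNA methylation, so their CG pairs are in capitals. Each run is the 250 bases before the RefSeq transcription start in the GRCm38.p6 assembly, written 5′ to 3′ on the gene's strand. Smc1b lies at chr15:85131958-85132207 on the minus strand, Rec8 at chr14:55617916-55618165 on the plus strand and Taf7l at chrX:134476491-134476740 on the minus strand.

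Smc1b: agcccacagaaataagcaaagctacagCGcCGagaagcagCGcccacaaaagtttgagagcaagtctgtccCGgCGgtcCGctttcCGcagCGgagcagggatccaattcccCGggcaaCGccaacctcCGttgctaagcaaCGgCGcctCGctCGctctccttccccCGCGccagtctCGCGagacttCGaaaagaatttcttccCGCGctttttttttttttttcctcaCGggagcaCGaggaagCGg
Rec8: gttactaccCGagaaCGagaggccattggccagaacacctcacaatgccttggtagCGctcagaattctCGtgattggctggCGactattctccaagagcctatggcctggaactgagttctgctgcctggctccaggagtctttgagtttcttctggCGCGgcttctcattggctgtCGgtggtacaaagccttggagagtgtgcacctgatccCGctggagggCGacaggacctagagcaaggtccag
Taf7l: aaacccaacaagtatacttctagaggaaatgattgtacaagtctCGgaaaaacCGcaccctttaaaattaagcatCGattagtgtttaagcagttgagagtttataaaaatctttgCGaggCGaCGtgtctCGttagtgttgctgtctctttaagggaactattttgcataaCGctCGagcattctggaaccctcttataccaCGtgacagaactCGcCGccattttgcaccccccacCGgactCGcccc

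The second set belongs to the 3 genes of the myeloid and fibroblast lists that were highest in the deletion line and had a RefSeq window. Lyz1 lies at chr10:117292869-117293118 and Lyz2 at chr10:117282273-117282522, both on the minus strand, and Col3a1 at chr1:45311288-45311537 on the plus strand. Lyz1 and Lyz2 are close paralogs, so their probe sets may read both transcripts.

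Lyz1: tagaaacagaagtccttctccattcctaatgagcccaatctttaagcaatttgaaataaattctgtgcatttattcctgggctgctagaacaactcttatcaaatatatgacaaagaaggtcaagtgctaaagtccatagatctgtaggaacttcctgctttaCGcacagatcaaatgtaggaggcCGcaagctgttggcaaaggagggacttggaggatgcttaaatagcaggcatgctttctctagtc
Lyz2: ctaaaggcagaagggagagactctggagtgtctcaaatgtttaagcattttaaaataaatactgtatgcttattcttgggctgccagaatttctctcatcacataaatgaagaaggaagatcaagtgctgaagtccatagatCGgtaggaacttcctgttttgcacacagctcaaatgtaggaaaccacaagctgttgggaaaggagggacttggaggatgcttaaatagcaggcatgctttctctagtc
Col3a1: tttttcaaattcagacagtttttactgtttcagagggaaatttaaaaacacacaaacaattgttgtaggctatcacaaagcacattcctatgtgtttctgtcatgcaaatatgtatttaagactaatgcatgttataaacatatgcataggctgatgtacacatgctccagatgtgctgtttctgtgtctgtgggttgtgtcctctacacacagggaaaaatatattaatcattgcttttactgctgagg

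The Smc1b window held 25 CG pairs, Rec8 10 and Taf7l 14. Lyz1 held 2, Lyz2 1 and Col3a1 0. The median over measured genes with a window was 16 (10709 of 13277 genes). Of the 21 measured meiosis genes 18 had a window, with a median of 15.5 CG pairs. The motif CACGTG, which reads the same on both strands, stood in 7 of these 18 windows, 38.9%, Taf7l among them, against 8.64% over measured genes. The motif TTCCCGC, on either strand, also stood in 7 of the 18, Smc1b among them, against 7.18%. Of the 7 meiosis genes that were 2-fold lower, 6 had a window. Among those 6, CACGTG stood in 2 and TTCCCGC in 1, so the shares of the list are not a trait of its lower genes. Neither motif contains the other. No comparison is made for the full sets of genes 2-fold apart, because too few of them had a window. Windows existed for 70.6% of the higher and 76.5% of the lower genes, which makes that check void.

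Most of the measured genes were within 2-fold between the 2 day 0 arrays, with no replicate arrays to set that against. Genes 2-fold higher in the deletion line numbered 418, or 3.15% of 13277, and genes 2-fold lower numbered 375, or 2.82%. The remaining 12484 genes were within 2-fold, and 78.7% of all genes were within 1.5-fold. The median difference was -0.05, with 5% of genes below -0.82 and 5% above 0.82. With arrays scaled to equal medians the counts were 307 higher and 513 lower, so the balance between the directions depends on the scaling. At least 4-fold differences were seen for 24 higher and 11 lower genes. The level of the full-length line was at the floor for 83 of the higher genes, and that of the deletion line for 72 of the lower genes.

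**Figure D1:**
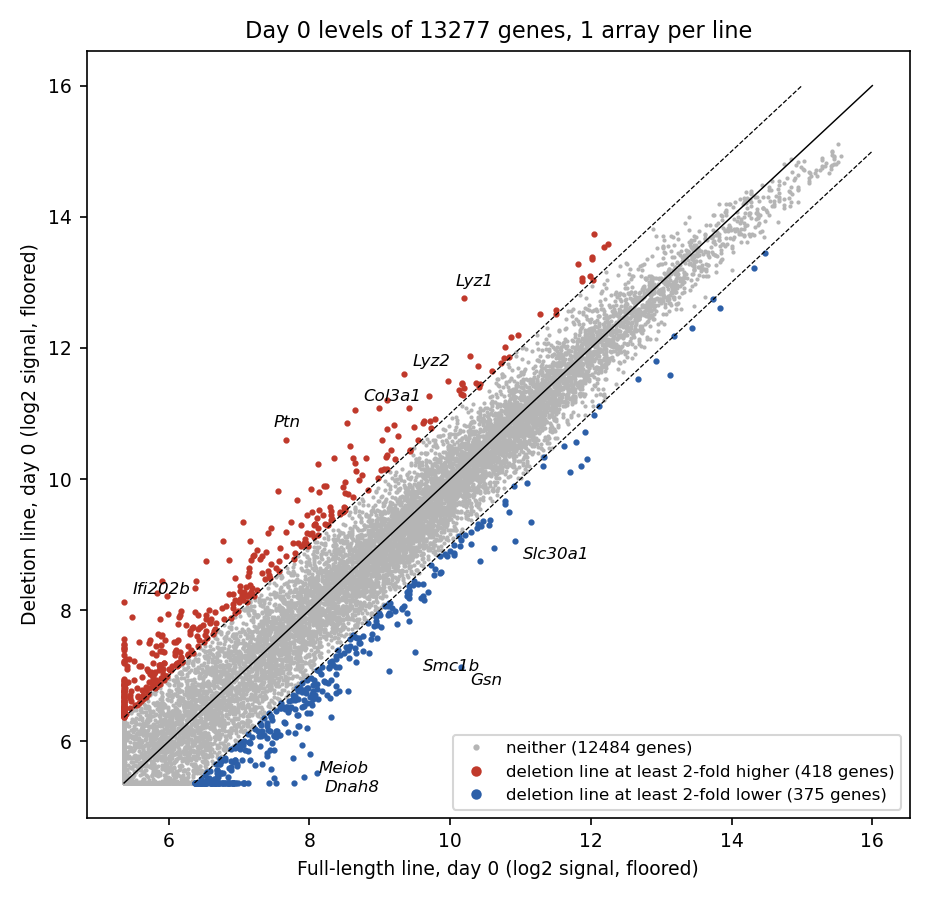
Floored log2 signal of each of 13277 genes in the full-length line (x axis) and the deletion line (y axis) at day 0, 1 array per line. The solid line marks equal levels and the dashed lines 2-fold; 418 genes lie above the upper dashed line and 375 below the lower one, and 82.8% of these have a mean level under 9.

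Genes with a mean day 0 level under 9 made up 82.8% of those 2-fold apart and 53.3% of all measured genes. Among genes with a mean day 0 level under 7, 10.9% were 2-fold apart, against 1.62% of those at 11 or above. The SD of the differences was 0.62 in the dimmest of these classes and 0.36 in the brightest. A 2-fold difference was therefore further from the usual scatter in bright genes than in dim ones.

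Genes with more than 1 probe set gave a check within the arrays. Both of a gene's brightest probe sets lay at or above the floor for 6152 genes, and their differences correlated at 0.32 across genes, which are not independent replicates. Where the brightest probe set was 2-fold higher, the next one was also higher in 136 of 169 genes and 2-fold higher in 46, or 27.2%. Over all 6152 genes the next probe set was 2-fold higher in 4.73%. Where the brightest was 2-fold lower, the next was lower in 82 of 120 genes and 2-fold lower in 15, or 12.5%, against 2.31% overall. A further probe set thus repeated the 2-fold difference in a minority of genes, and for 504 genes 2-fold apart no such check was possible. Probe sets of a gene share the RNA and the array, so they bear on the probes and not on the lines.

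**Figure D2:**
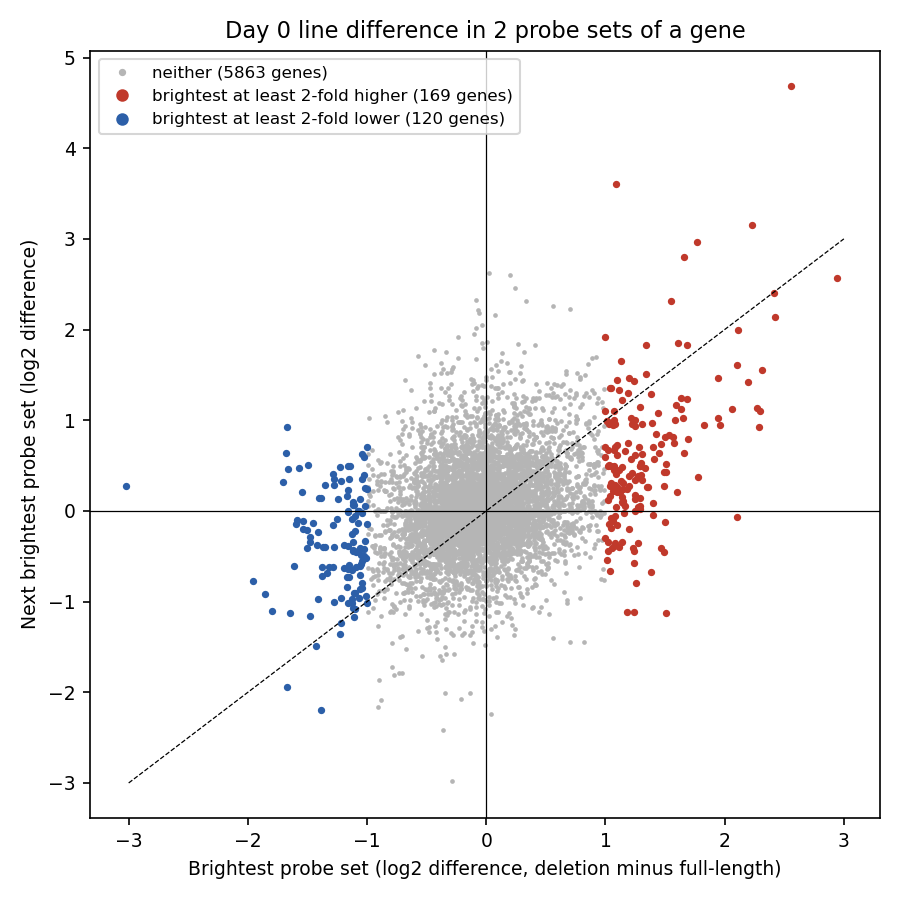
Log2 difference between the lines at day 0 in the brightest (x axis) and the next brightest (y axis) probe set of 6152 genes, with 1 point per gene. Red genes, 169 of them, lean above 0 on the y axis (136 genes); blue genes, 120 of them, lean below it (82 genes), and the dashed line marks equal differences.

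Dnmt1 and its partners were looked at next. Dnmt1 read 9.65 and 8.97 at its brightest probe set. The next probe set read 8.59 and 7.91, and the dimmest read 7.30 and the floor, a difference of -1.93 that is a lower bound on its size. At the brightest probe set Dnmt1 differed by -0.68 and Dnmt3b by a similar -0.63, from levels of 8.84 and 8.21. The 5 probe sets of Dnmt3a had mean signals below the floor, although the highest of them in the deletion line read the floor and 6.17 at day 0. Dnmt3l, which encodes a cofactor of the de novo enzymes without activity of its own, read 12.83 and 13.00. Uhrf1, whose protein brings DNMT1 to hemimethylated DNA, read 12.68 and 12.78. Of the 18 measured genes of DNA methylation and demethylation, 0 were 2-fold higher and 0 were 2-fold lower. Over all genes 3.15% were 2-fold higher and 2.82% lower. The positions of these probes within the knocked-out or shortened genes were not examined, so their values are no check of the genotypes.

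The 12 highest named genes in the deletion line included 3 collagen genes and 2 lysozyme genes beside genes of other kinds. Ptn, which encodes the growth factor pleiotrophin, read 7.66 and 10.60, a 7.67-fold difference. Its next probe set differed by 2.57 and the third by 0.24. Lyz1, a lysozyme gene, read 10.20 and 12.76, and its next probe set read 7.92 and 12.61. The other Lyz1 probe set was below the floor on both arrays, so the difference rests on these 2, which may also read Lyz2. Ifi202b, an interferon-inducible gene, read the floor and 8.12, and Ptx3, a soluble pattern recognition protein, 5.90 and 8.44. Upk1b, a uroplakin, read 5.48 and 7.90, and the membrane protein gene Tmem176b 5.84 and 8.26. Nupr1, a stress-induced chromatin protein, read 7.05 and 9.35. All of these were at or near the floor in the full-length line except Ptn, Lyz1 and Nupr1. Mpzl2, an adhesion protein, read 8.54 and 10.85, but its 3 probe sets ranged from 0.00 to 2.31. The collagen genes Col3a1, Col1a1 and Col8a1 differed by 2.41, 2.29 and 2.27, and Lyz2 by 2.25.

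The 12 lowest named genes were mostly dim in the deletion line. Gsn, which encodes the actin-severing protein gelsolin, read 10.16 and 7.14, the largest negative difference by this rule. Its other 4 probe sets above the floor ranged from -0.73 to 1.20, so the gene had no agreed direction. Dnah8, a dynein heavy chain of sperm tails, read 8.10 and 5.52. Psmb8, an immunoproteasome subunit, read 7.78 and the floor, a difference of -2.41 that is a lower bound on its size. Zbp1, a sensor of nucleic acids, read 7.90 and 5.94, with its other probe set at -0.77. Slc30a1, a zinc exporter, read 10.92 and 9.06, with its other probe set at -0.92. Levels of Cpn1, Tubb4a, Tmc8, Emid1 and Hectd4 lay between 7.43 and 8.31 in the full-length line, with differences from -2.15 to -1.87, those of Cpn1 and Tubb4a being bounds. The meiosis genes Meiob and Smc1b complete the 12.

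**Figure D3:**
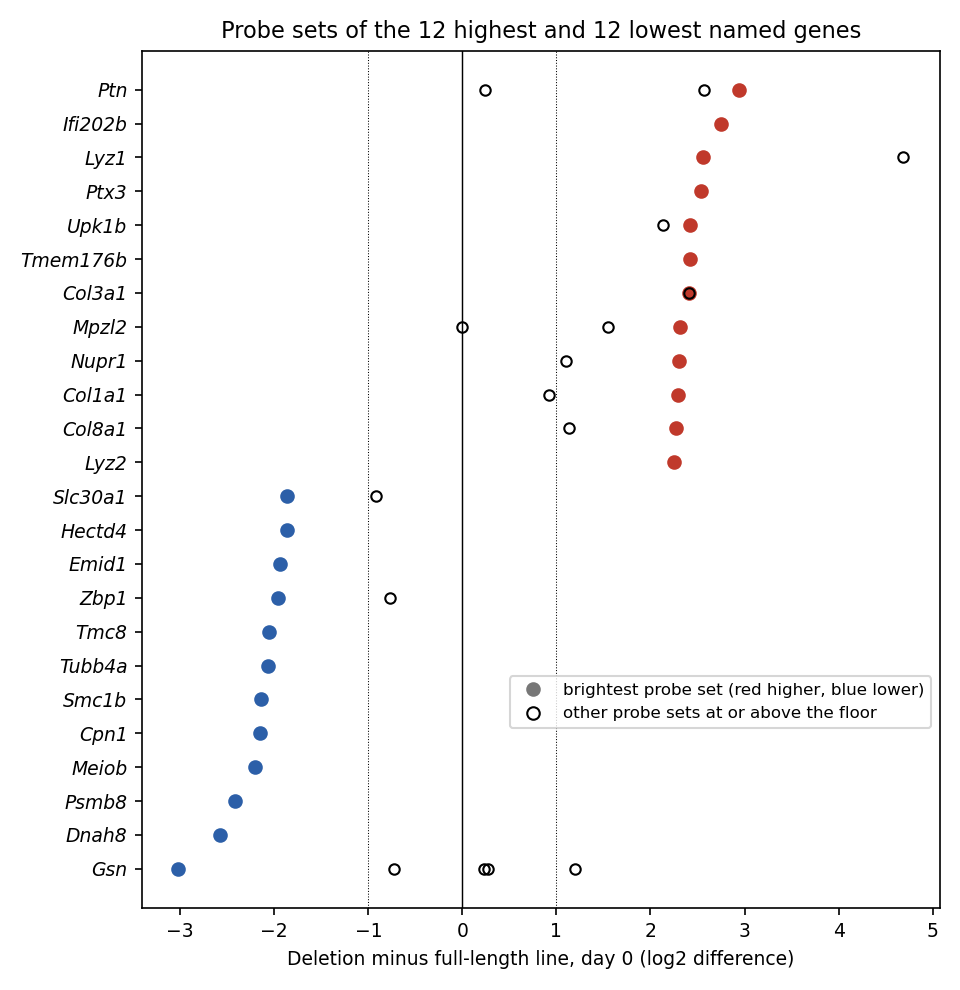
Log2 difference between the lines at day 0 (x axis) for the 12 highest and 12 lowest named genes, with filled points for the brightest probe set and open points for other probe sets at or above the floor. Dotted lines mark 2-fold. Col3a1 and Upk1b repeat their difference in a further probe set, whereas Gsn has probe sets on both sides of 0. The Lyz1 probe sets may also read Lyz2.

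Genes in which every probe set above the floor was 2-fold apart in the same direction, and the higher level 4 times the floor or more, numbered 32 higher and 9 lower. Beside Lyz1, Upk1b, Col3a1, Nupr1 and Col8a1, the highest were Aspn, Ccn3 and Prss23. Aspn, a matrix proteoglycan, read 5.98 and 8.21, and its other probe set differed by at least 3.15. Prss23, a serine protease, read 8.99 and 11.09. Among the 9 lower genes Scml2, a Polycomb-related protein of the germline, read 10.62 and 8.95 at its brightest probe set and 9.53 and 7.59 at the other. Gbp2 read 8.38 and 6.73, Fam83h 8.12 and 6.64, and Hps1 8.96 and 7.57. Irak3, an inhibitor of Toll-like receptor signalling, differed by -1.22 from a full-length level of 8.72, and Ddit4l, an inhibitor of mTOR, 9.42 and 8.19. Rusc2 and Tm6sf1 differed by -1.43 and -1.16. These genes were chosen for the agreement of their probe sets, so that agreement is no further check of their direction.

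Genes of macrophages and other myeloid cells stood highest among the 36 gene lists examined. Of the list's 15 measured genes 11 were 2-fold higher, 0 were 2-fold lower and 4 were neither, against 3.15% higher over all genes. The median difference was 1.60, against -0.05 over all genes. The list had 19 entries, and the mean signal that decides which are measured includes the deletion line's day 0 array. A gene high mainly on that array could thus enter through it. With dim genes kept in, the list median was 1.38, with 11 genes higher. The summed signal of the list was 5732 and 15551, a ratio of 2.71. Lyz2 read 9.35 and 11.60, the protease gene Ctss 7.82 and 9.68, and Laptm5 8.55 and 9.77. Lyz1 and Lyz2 are both among the 11, although their probe sets may share signal. The signalling adaptor gene Fcer1g and the co-receptor gene Cd14 were at the floor in the full-length line and read 7.43 and 7.42 in the deletion line. Among defining macrophage markers, Adgre1, which encodes F4/80, read 5.72 in the full-length line and was higher by 1.78, and Csf1r, the receptor of macrophage colony-stimulating factor, 6.86 and 8.24. The other 2 Csf1r probe sets included a difference of -0.67. Spi1, the master factor of myeloid cells, read 6.30 and 5.82, and Cd68 9.30 and 8.77, so these markers did not follow the rest. In bulk RNA a larger number of cells of a type and more RNA per cell cannot be told apart.

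Genes of fibroblasts, the cells that serve as feeders for stem cells, were the other list with a median above 1. Of 26 measured genes 13 were 2-fold higher, 1 was 2-fold lower and 12 were neither, with a median difference of 1.02. Over all genes 3.15% were 2-fold higher and 2.82% lower. The summed signal was 31423 and 45790, a ratio of 1.46. Col3a1, a fibrillar collagen, read 8.65 and 11.06, and its other probe set the floor and 7.77. Col1a1 read 6.77 and 9.06, and its other probe set differed by 0.92. Col5a2 read 9.10 and 10.76, and Lum, which encodes lumican, the floor and 7.21. Decorin (Dcn), lysyl oxidase (Lox) and vimentin (Vim) differed by 1.66, 1.63 and 1.35. The collagen genes Col1a1, Col1a2 and Col3a1 were above the floor on both arrays, so these members of the list were read in the full-length line too. Thy1, a surface marker, read 9.17 and 9.30, Twist1 7.72 and 7.83, and Mgp 8.57 and 8.59. Fn1, which encodes fibronectin, was the lower gene at 13.18 and 12.18, with its other probe set at 0.71. The myeloid list and the fibroblast list were both higher on the deletion line's array, and their part in the other differences described here was not tested. Together they supplied 24 of the 418 higher genes, or 5.74%, and 4 of the 12 highest. The 2 lists held only 41 measured genes, so the size of the lists limits that share. They do not hold every gene of these cell types: the matrix genes Col8a1 and Aspn, both 2-fold higher, are outside them. The share is therefore no measure of how many higher genes belong to such cells.

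**Figure D4:**
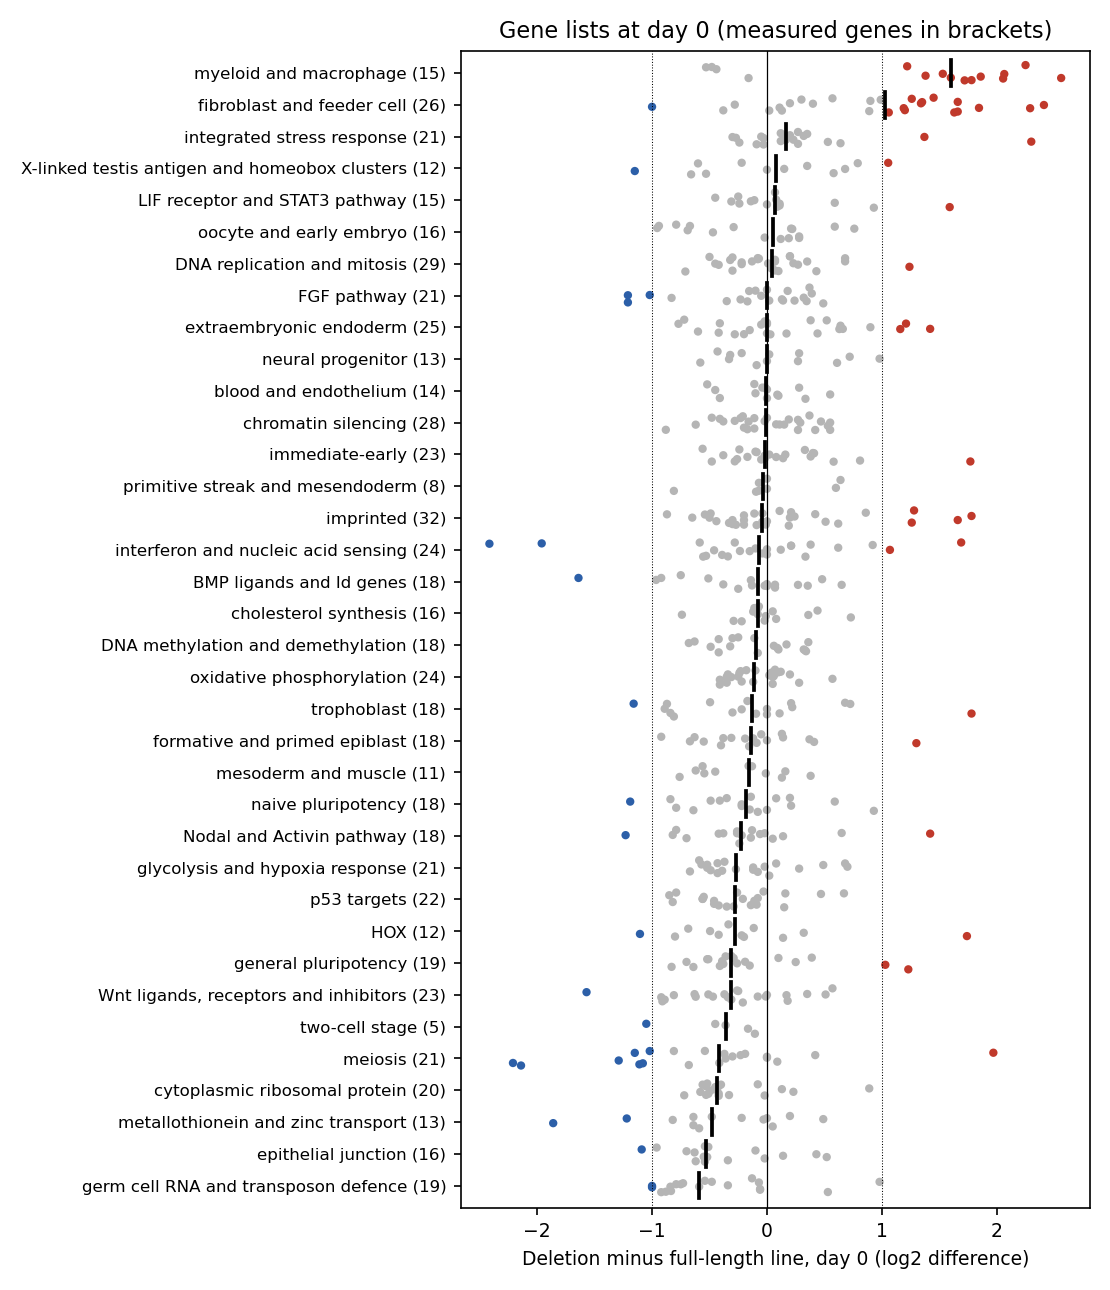
Log2 difference between the lines at day 0 (x axis) for the measured genes of 36 lists, ordered by their median (black bar), with the number measured in brackets. Red and blue points are genes at least 2-fold higher and lower; the myeloid and fibroblast lists have medians of 1.60 and 1.02, and the other medians lie between -0.59 and 0.16.

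Meiosis genes were the list with the most members 2-fold lower in the deletion line. Of 21 measured genes 7 were 2-fold lower and 1 was 2-fold higher, against 2.82% lower and 3.15% higher over all genes, and the median difference was -0.41. Meiob, which encodes a single-strand DNA binding protein of meiotic recombination, differed by -2.21 from a full-length level of 8.01. Smc1b, whose promoter is printed above, encodes a meiotic cohesin subunit and read 9.50 and 7.36. Rec8, a further meiotic cohesin gene, read 8.56 and 7.27. Mael, the recombinase gene Dmc1, Stra8 and Taf7l differed by -1.11, -1.08, -1.02 and -1.15, and a second Dmc1 probe set by -0.44. Hormad1, a protein of the chromosome axis, went the other way, at 8.35 and 10.32. The synaptonemal complex genes Sycp3 (-0.54), Syce1 (-0.37), Sycp1 (-0.30) and Syce2 (-0.19) were within 2-fold. The genes of this list that were 2-fold apart were each read by 1 probe set above the floor, Dmc1 apart.

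Genes of germ cell RNA handling and transposon defence were lower in sign in 17 of 19, with a median of -0.59. Only Tdrd7 and Asz1 reached 2-fold (10.5%, beside 2.82% of all genes), both at -1.0, and another Asz1 probe set differed by -0.14. Dazl, whose protein binds RNA in germ cells, read 11.40 and 10.48, Piwil2 9.04 and 8.29, and Ddx4 9.34 and 9.28. Tdrd12, a tudor domain gene, was the highest of the list, with a difference of 0.98. Among the X-linked testis antigen and homeobox genes, 12 were measured, and 1 was 2-fold higher (Tktl1, at least 1.05, with 3 probe sets from -0.41) and 1 lower (Taf7l). Rhox5, a gene held silent by methylation in many cell types, read 12.92 and 13.71. In sign, 16 of the 21 meiosis genes were lower and 3 higher, and the X-linked list had 5 lower and 6 higher. The meiosis and germ cell RNA lists therefore leaned lower, with exceptions, and the X-linked list had no common direction.

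Most stem cell genes were within 2-fold between the lines. Of 19 measured general pluripotency genes 17 were within 2-fold, with a median of -0.31, and this median was -0.19 after quantile normalization. In sign, 14 of the 19 were lower in the deletion line and 5 higher. Fgf4 differed by -0.83 and Gdf3 by -0.70. Sall1 and Eras were the 2 genes that were 2-fold higher (10.5%, beside 3.15% of all genes), at 10.78 and 12.01, and 10.83 and 11.86. A second Sall1 probe set differed by -0.41. Of 18 naive pluripotency genes 17 were within 2-fold, and in sign 12 were lower and 5 higher. Jam2, an adhesion protein, read 11.91 and 10.72, Klf4 12.22 and 13.15, and Dppa3 12.07 and 11.28. The other Jam2 probe sets differed by -0.91 to -0.15. In the LIF pathway 14 of 15 genes were within 2-fold. The receptor genes Lifr (10.84 and 10.92) and Il6st (9.65 and 9.20) and the feedback gene Socs3 (12.39 and 12.48) were close. Osmr, the oncostatin M receptor gene, was the exception, at 7.17 and 8.76, with its other probe set at least 1.16 higher. Of the 18 formative and primed epiblast genes only Cdh2, which encodes N-cadherin, was 2-fold apart, at 1.30, with its other probe set at 0.53.

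Ligands, targets and inhibitors of patterning pathways held a few lower genes. Lefty1, a secreted Nodal inhibitor and Nodal target, read 13.84 and 12.61. Lefty2 read 12.45 and 11.63, and Nodal itself 11.87 and 11.49. Fst, which encodes the activin-binding protein follistatin, was the higher gene of this list, at 7.88 and 9.30. Id1, a target of BMP signalling, read 11.95 and 10.31, and Id3 11.17 and 10.42, while the ligand gene Bmp4 read 9.81 and 10.29. Among FGF genes Fgf15 and the phosphatase gene Dusp4 each differed by -1.21 and the receptor gene Fgfr2 by -1.02. A second Fgfr2 probe set differed by -0.33. The direct ERK feedback genes Dusp6 (11.30 and 11.43) and Spry2 (10.75 and 10.77) were close, although a second Spry2 probe set differed by -0.99. Wnt4 was the 1 Wnt gene of 23 that was 2-fold lower, at 7.44 and 5.87, with its other probe set higher by at least 0.47. In the FGF list the 3 lower genes were 14.3% of 21 measured, beside 2.82% of all genes. The Nodal, BMP and Wnt lists had 1 lower gene each.

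Genes that lie side by side on a chromosome were read for runs of at least 3 measured neighbours 2-fold apart in the same direction, and 3 runs were found. Gbp3, Gbp2b and Gbp2 on chromosome 3, which encode interferon-inducible guanylate-binding proteins, had full-length levels of 6.85, 7.85 and 8.38 and differed by -1.25, -1.61 and -1.65. These copies are similar, so their probe sets may share signal. Beside them, Psmb8 and Zbp1 were the 2 lower genes of the interferon and nucleic acid sensing list, and the other measured members included Stat2 (1.07) and Mavs (1.69) as higher genes. Ifit3, Irf1 and Bst2 were within 2-fold, so the list as a whole had a median of -0.07. The chemokine genes Ccl2, Ccl7 and Ccl8 on chromosome 11 were higher by 1.54, 1.44 and 1.07. Ms4a4d, Ms4a6d and Ms4a3 on chromosome 19, membrane protein genes of blood cells, were higher by 1.09, 1.31 and at least 1.36. These runs hold genes of inflammation and white blood cells.

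Stress, zinc, junction and imprinted gene lists held between 1 and 4 genes 2-fold apart. Over all genes 3.15% were 2-fold higher and 2.82% lower. In lists of this size 1 gene already gives a share above those, 6.25% in the junction list, so the shares rest on few genes. Nupr1 and Chac1 (1.37) were the 2 higher genes of 21 in the integrated stress response (9.52%), and the list had a median of 0.16. Slc30a1 and Mt4 were the 2 lower genes of 13 in the zinc list (15.4%), with Mt1 at 14.01 and 13.19 and Mt2 at 14.43 and 13.79. Dsp, which encodes the junction protein desmoplakin, read 10.40 and 9.31, with its other probe set above the floor at -0.62. It was the 1 lower gene of 16 in the epithelial junction list, whose median was -0.53, with 13 of 16 lower in sign. Cdh1, which encodes E-cadherin, read 12.76 and 13.28. Imprinted genes had 4 higher (12.5%) and 0 lower of 32, namely Ascl2 (1.78), Dcn (1.66), Plagl1 (1.28) and Igf2 (1.26). Dcn is also a fibroblast gene, and the Ascl2 probe sets ranged from 0.37 to 1.78. Ribosomal protein genes had 0 of 20 beyond 2-fold and a median of -0.44, which became -0.02 after quantile normalization, so it depended on the scaling. Lists of p53 targets, glycolysis, oxidative phosphorylation, cholesterol synthesis and chromatin silencing had 0 genes 2-fold apart.

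The later arrays of the lines share no array with day 0 and show which of these differences were also read there. Of the 418 higher genes 24, or 5.74%, were also 2-fold higher at day 4 and 42, or 10.0%, were 2-fold lower, where 2.43% and 3.54% of all genes were so. At day 7, 68 (16.3%) were 2-fold higher and 48 (11.5%) lower, where the shares of all genes were 3.95% and 8.92%. Of the 375 lower genes 44, or 11.7%, were 2-fold lower at day 4 and 11, or 2.93%, higher, and at day 7 85 (22.7%) were lower and 33 (8.80%) higher. Most of the day 0 differences were thus not read again at 2-fold on a later day. At day 4 more of the higher genes were 2-fold lower (42) than 2-fold higher (24). The day 0 genes were dimmer than most. Their median full-length level at day 4 was 6.85 (higher genes) and 7.58 (lower genes), against 8.93 over all genes. Dim genes were 2-fold apart more often at day 0, so shares above those of all genes can go with level, and no level-matched comparison was made.

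On the later days the lists with the most 2-fold differences at day 0 had small medians. The myeloid list had median differences of 0.00 at days 4 and 7, and the 4 genes Lyz1, Ctss, Cd53 and Mpeg1 were at the floor on all 4 later arrays. The fibroblast list had medians of -0.10 and 0.14. Meiosis genes had medians of 0.15 and 0.28, and Smc1b differed by -0.12 at day 4 and 1.59 at day 7. The median differences of these 3 lists at day 0 were therefore not seen on the later days.

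**Figure D5:**
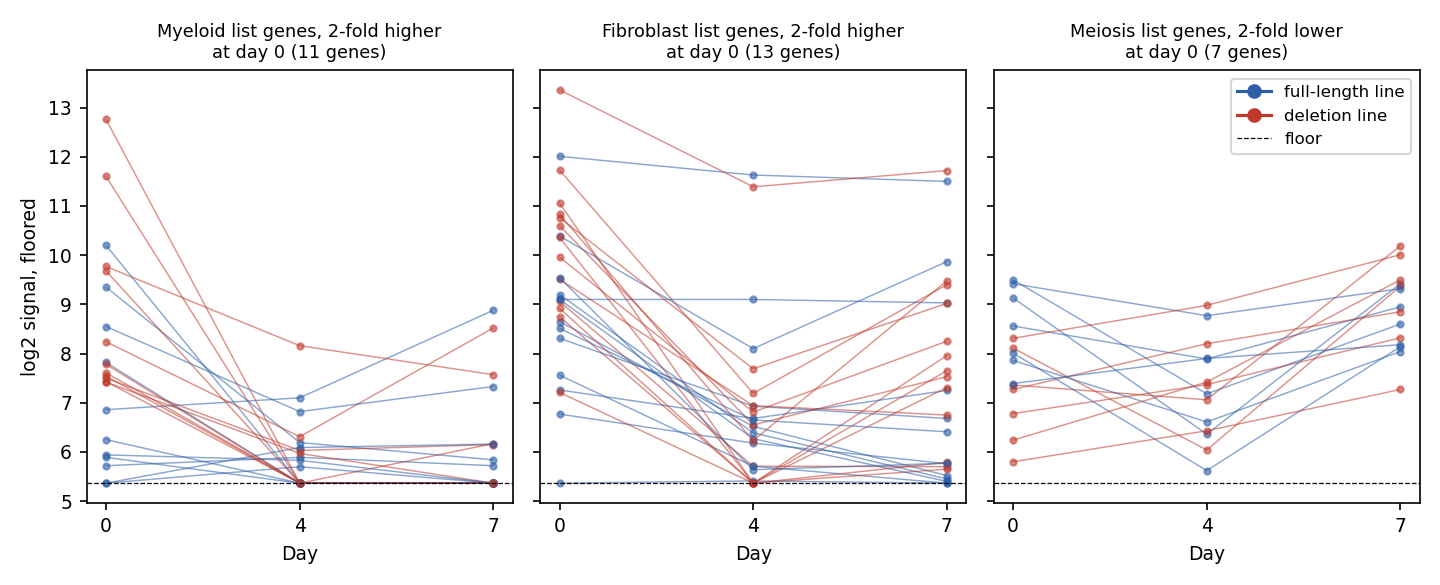
Floored log2 signal (y axis) at days 0, 4 and 7 (x axis) of the list genes at least 2-fold apart at day 0, with 1 line per gene and cell line and 1 array per point. Of the 11 myeloid genes 4 reach the floor (dashed) in both lines at day 4, and of the meiosis genes Smc1b differs by -2.14 at day 0 and 1.59 at day 7.

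The genes 2-fold apart in the same direction on all 3 days numbered 10 higher and 13 lower, or 2.39% of the 418 and 3.47% of the 375. Over all measured genes, whatever their day 0 value, 0.587% were 2-fold higher and 1.34% lower on both later days. Those shares were not matched for level either. Nupr1 was higher by 2.30, 1.79 and 3.01 at days 0, 4 and 7. Spink1, a trypsin inhibitor gene, was higher by 1.70, 1.10 and 1.91, Snhg3, a snoRNA host gene, by 1.69, 1.34 and 1.05, and Mavs, the adaptor of cytosolic RNA sensing, by 1.69, 1.42 and 1.01. Malat1, a nuclear non-coding RNA, was higher by 1.34, 1.92 and 1.66 at its brightest probe set, with 7 probe sets from -0.41 to 1.51 at day 0. Cpt1a, the enzyme that admits fatty acids to mitochondria, was higher by 1.27, 2.70 and 2.99, although its next probe set read -0.35 at day 0. Zfp141, Ninl, Rb1cc1 and C130026I21Rik complete the higher genes, and a second Rb1cc1 probe set read -1.12. Among the lower genes, Lpcat4, a lysophospholipid acyltransferase, differed by -1.58, -1.16 and -1.34, and Wnt4 by -1.57, -1.26 and -1.26. Prickle1, a planar polarity gene, differed by -1.15, -1.48 and -1.50, and the peroxisome gene Pex2 by -1.11, -1.09 and -1.18. The others were 1700003E16Rik, Cysrt1, Ankrd2, Dnah11, Pgap4, Aif1l, Ctsf, Farp1 and Pcdh8. A further probe set was above 0 at day 0 for Wnt4, Aif1l, Pex2 and Pcdh8, so these 4 do not agree within the array.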

How the data were processed

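Affymetrix arrays were hybridised with mouse RNA, 1 array for each of 6 samples, of which 2 are compared here. The deposited values are log2 signals, and MAS5 is the tool that the submitters' processing notes name. The log2 scale was read from the values, which ran from 0 to 15.68, and 2 to their power had a trimmed mean (2% left out at each end) between 496.7 and 496.9 on every array. Its version and scaling target are not given in the sources used. Global scaling removes a shift of most genes in 1 direction.

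Samples were grouped by title. For the floor, the 40th percentile of every array was taken and the median of these 6 values used; it is not a measured background. The platform annotation of 2016 gave 1 symbol to 34945 of 45037 probe sets, several to 932 and none to 9160, and 34741 were found in RefSeq, with 0 symbols changed. A gene was read from the probe set whose mean signal over the 6 arrays was highest. It counted as measured where that mean reached the floor, which held for 13277 of 18193 genes. The mean includes the day 0 arrays, so a gene high on only 1 of them could be measured through it. Differences were computed in Python 3.11.15 with pandas 2.3.3. The arithmetic was checked on simulated data in which bright genes were moved by known folds without added scatter. That check does not bear on dim genes or on scatter between arrays. Promoters and gene order came from RefSeq, GRCm38.p6.

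Named genes were Dnmt1, Dnmt3a, Dnmt3b, Dnmt3l and Uhrf1, the 12 highest and 12 lowest whose higher level was 4 times the floor or more, the 8 highest and 8 lowest with at least 2 agreeing probe sets, up to 4 per list, and genes in runs of neighbours. Gene models without a proper name were left out of the ranked choices. Defining markers, further list members named beside them and the genes 2-fold apart on all 3 days were chosen after their values were seen. The comparison and the lists were chosen with earlier results of these data known. Nothing says that samples came from repeated cultures.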

Additional observations from a re-analysis of the deposited data

Results flagged for a closer look

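Some named genes differed at least 2-fold between the lines at day 0 and at least 2-fold the other way on a later day. With 1 array per line and day these reversals were not tested, and a value that involves the floor is a lower bound on its size, marked as "at least" or as a bound. Ptn, higher by 2.94 at day 0, differed by -1.18 at day 4 and by -4.93 (a bound) at day 7, and Tmem176b, higher by 2.42, by -1.46 and -1.72. At day 4 Upk1b, higher by 2.42 at day 0, differed by -1.05 (a bound). Col3a1 differed by -1.15 at day 4 (a bound), but was higher by 2.41 at day 0 and by 2.44 at day 7. The other collagen and matrix genes that turned at day 4 were Col5a2 (1.66 at day 0, -1.41 at day 4) and Dcn (1.66, then -1.31, a bound).

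Of the imprinted genes, Igf2 was higher by 1.26 at day 0 and differed by -1.22 and -2.02 at days 4 and 7, Plagl1 by 1.28, -1.04 and -1.26, and Ascl2 by 1.78 at day 0 and -2.18 at day 7. Fst differed by 1.42, -2.58 and -1.08. At day 4 Lrp2 (1.21 at day 0) differed by -1.24, Ccnd2 (1.24) by -1.33 and Tktl1 (at least 1.05) by -1.29. At day 7 Cdh2 (1.30 at day 0) differed by -1.89 and Ms4a4d (1.09) by -3.07, a bound.

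Among genes lower at day 0, Cpn1 (-2.15, a bound) was higher by at least 1.05 and Irak3 (-1.22) by 1.36 at day 4. At day 7 Smc1b (-2.14), Taf7l (-1.15) and Scml2 (-1.67) were higher by 1.59, 1.32 and 1.14, and Jam2 (-1.19) by 1.15. Zbp1 differed by -1.96 at day 0 and was at the floor in the deletion line at day 4 (-1.95, a bound) before it was higher by 1.63 at day 7. Lefty1 (-1.23) and Usp17la (-1.05) differed by -1.92 and -1.85 at day 4 and by 1.66 and 2.29 at day 7.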

How the results depend on the processing

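The counts of genes 2-fold apart followed the treatment of dim probe sets. They were 1084 higher and 1028 lower with the floor at the 20th percentile, 179 and 159 with it at the 60th, 274 and 242 with probe sets averaged, and 248 and 237 with a required higher level of 4 times the floor, against 418 and 375. Dropping the minimum for the higher level changed neither count, by construction. Higher genes made up 52.7% of those 2-fold apart, 37.4% with equal medians and 45.6% with quantile normalization. The median over all genes was -0.15 with equal medians and lay between -0.06 and 0.00 under the other settings. The count of higher genes in the myeloid list, 11, was between 8 and 12, except 5 with the floor at the 60th percentile. It was 12 or 13 in the fibroblast list, and the meiosis list had 5 to 7 lower genes. Reading the brightest probe set over the day 0 arrays turned Gsn to 0.27 and Cpt1a to -0.35, and averaging probe sets moved Gsn to -0.07. Of the named genes, 57 of 68 stayed within the SD between probe sets (0.60) with probe sets averaged and 41 of 52 with the higher floor. No paired analysis was possible because each group holds 1 array and the labels give no replicate numbers.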

Other observations

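Median differences by chromosome lay between -0.08 and 0.01, except chromosome 11 at -0.18 over 1097 genes, where 27 genes were 2-fold higher and 40 lower. The same chromosome had median differences of -0.07 at day 4 and 0.15 at day 7. HOX genes were mostly dim, and of 12 measured 1 was 2-fold higher and 1 lower, Hoxc8 (1.74) and Hoxc6 (-1.10, a lower bound on its size, with another probe set at -0.06). In the trophoblast list Gata2 (-1.16, with another probe set at -0.01) was the lower gene of 18 and Ascl2 the higher. Of the extraembryonic endoderm genes Lrp2 differed by 1.21 and Col4a2 by 1.16, while the markers Gata4 (6.45 and 6.03), Gata6 (6.45 and 6.62) and Sox17 (6.83 and 6.55) were within 2-fold. Neural progenitor, mesoderm and muscle, blood and endothelium, and primitive streak lists had 0 genes 2-fold apart. They held between 8 and 14 measured genes each, and over all genes 3.15% were 2-fold higher and 2.82% lower.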
